A study of Homo sapiens with 6 samples.

Results

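The 9 genes described here build and control the positive transcription elongation factor P-TEFb and its target, RNA polymerase II: HEXIM1, CDK9, CCNT1, CCNT2, LARP7, AFF4, ELL2, SUPT5H and POLR2A. They were chosen by gene symbol, all 9 were found once among the 19940 gene rows of each count table, and all 9 passed the filter on low counts. They were measured in U2OS, a human osteosarcoma line, carrying a stable transgene of GFP fused to the decapping protein DCP1A and kept under G418 selection, a background shared by every group. The isotonic group was held in medium with 150 mM sodium, made by a mock addition of 1x PBS. The hypertonic group was held for 4 h in medium brought to 300 mM sodium with 10x PBS, and the rescue group was returned to isotonic medium for 4 h after that treatment. Each group had 2 libraries of total RNA depleted of ribosomal RNA. Separate cultures behind a group's libraries are not stated, nor whether the line is 1 clone. The p-values therefore rest on library-to-library spread that may be technical. Rescue and a harvest 4 h later cannot be told apart in this design.

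RNA polymerase II pauses shortly after it starts a gene, held there by the factors DSIF and NELF, and P-TEFb releases it by phosphorylating DSIF, NELF and the tail of the polymerase. P-TEFb is the kinase CDK9 with cyclin T1 or T2; much of it is kept inactive in the 7SK ribonucleoprotein, in which HEXIM1 is the inhibitor and LARP7 holds the 7SK RNA. Stress and transcription inhibitors are known to free P-TEFb from this store, and the freed kinase works with elongation factors such as AFF4 and ELL2. The 7SK RNA itself was not analysed here.

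The promoters of HEXIM1, AFF4 and POLR2A are shown because their GENCODE 29 gene start did not lie upstream of the RefSeq start site. HEXIM1 and AFF4 were high in the same libraries, and POLR2A was highest in the rescue libraries. Each is the stretch of 250 bases before the RefSeq start site (GRCh38.p14), written 5′ to 3′ along the gene's strand. Capitals mark matches, on either strand, to 5 motifs, and no matches overlap in these stretches. The TATA box was searched as TATAAA. The box bound by NF-Y was searched as CCAAT, and the core of the NFAT family motif as TGGAAA. The heat shock element was searched as GAANNTTC. The E-box was searched as CACGTG.
HEXIM1, chr17:45148225-45148474, plus strand: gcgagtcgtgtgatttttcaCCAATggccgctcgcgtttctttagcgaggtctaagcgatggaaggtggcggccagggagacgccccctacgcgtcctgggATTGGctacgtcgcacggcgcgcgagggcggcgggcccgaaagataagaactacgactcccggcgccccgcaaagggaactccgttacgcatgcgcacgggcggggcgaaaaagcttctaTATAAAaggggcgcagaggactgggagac
AFF4, chr5:132963635-132963884, minus strand: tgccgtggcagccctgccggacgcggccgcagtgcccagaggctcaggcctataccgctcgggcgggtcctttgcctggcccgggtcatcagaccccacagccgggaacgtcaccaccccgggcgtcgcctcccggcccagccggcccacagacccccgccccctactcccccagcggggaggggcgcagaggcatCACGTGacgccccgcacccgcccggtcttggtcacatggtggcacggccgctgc
POLR2A, chr17:7484116-7484365, plus strand: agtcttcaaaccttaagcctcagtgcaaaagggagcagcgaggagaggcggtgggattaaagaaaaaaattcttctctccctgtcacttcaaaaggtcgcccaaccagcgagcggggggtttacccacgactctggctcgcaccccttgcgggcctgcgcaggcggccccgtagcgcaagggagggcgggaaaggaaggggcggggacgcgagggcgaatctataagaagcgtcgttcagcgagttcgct
The HEXIM1 promoter held TATAAA from 29 to 24 bases before the start, a match found in 10.7% of 35116 promoters of the same length, and 1 CCAAT on each strand (32.0% of promoters had at least 1). The AFF4 promoter held CACGTG, present in 6.35% of promoters, and the POLR2A promoter matched none of the 5. TGGAAA, in 18.01% of promoters, was in none of the 8 member promoters found in the RefSeq table, and GAANNTTC, in 5.78%, was in none of them either. CCAAT was in 4 of the 8 member promoters (HEXIM1, CCNT1, CCNT2 and LARP7), and CACGTG in 2 of the 8 (CCNT1 and AFF4). ELL2 was not in the RefSeq table. For CDK9, CCNT1, CCNT2 and SUPT5H the searched stretch lay wholly inside the GENCODE 29 gene span, and for LARP7 partly inside it. For these genes the search, and any absence of a match, covers only the bases before the RefSeq start site. The stretch before their GENCODE gene start was not searched in full. A match is a string of letters and not a shown binding site.

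Likeness among the isotonic and hypertonic libraries ran across their labels. Between isotonic 1 and hypertonic 2 the 9 genes differed by at most 0.096 on the log2 scale of CPM (counts per 1000000 of the library total), and between isotonic 2 and hypertonic 1 by at most 0.13. Between isotonic 1 and isotonic 2 the largest difference was 1.74, and the rescue libraries differed by at most 0.091. SLC38A2, an amino acid transporter induced by hypertonic stress, was at 341 and 344 CPM in isotonic 1 and hypertonic 2 and at 2727 and 2697 CPM in isotonic 2 and hypertonic 1. It was not tested whether the labels of an isotonic and a hypertonic library were exchanged; an exchange would turn the direction of number 1 or of number 2 and change what the labelled isotonic and hypertonic means measure. Labels were kept, and each direction is that of the labels. Most results on the 9 genes are also given for number 1 (without isotonic 2 and hypertonic 2) and number 2 (without isotonic 1 and hypertonic 1). There the spread comes from the rescue libraries alone, and single libraries are assumed to vary as they do. Most rescue results on other genes are given for all 6 libraries only. Total counts ranged from 90196278 to 105991428 per library. Genes without a count numbered 690 and 699 in the rescue libraries and 1248 to 1653 in the others, and in rescue 386 olfactory receptor rows, genes mostly expressed in the nose, summed to 116 and 125 CPM against 41.0 to 61.1; their part in the rescue results was not tested. DCP1A was at 764 to 927 CPM in the isotonic and hypertonic libraries and at 505 and 527 CPM in rescue, a total that includes any transgene reads matching the gene. Of the 9 bone and osteosarcoma markers, VIM, COL1A1 and SPARC were at 687 to 1799 CPM in every library, while SP7, COL1A2 and IBSP stayed under 1 CPM. RUNX2, a regulator of bone cell identity, split the libraries, at 77.7 and 76.1 CPM in isotonic 1 and hypertonic 2, 17.6 and 17.2 CPM in isotonic 2 and hypertonic 1, and 62.8 and 68.6 CPM in rescue. ALPL was also lowest in isotonic 2 and hypertonic 1, at 0.73 and 0.99 CPM. It was at 2.20 and 1.87 CPM in isotonic 1 and hypertonic 2 and highest in rescue, at 2.82 and 2.74 CPM. BGLAP went the other way among the isotonic and hypertonic libraries. It was at 1.09 and 0.81 CPM in isotonic 2 and hypertonic 1, against 0.51 and 0.61 in isotonic 1 and hypertonic 2. In isotonic 2 and hypertonic 1 VIM was also higher than in isotonic 1 and hypertonic 2, while COL1A1 and SPARC were lower. The 5 leukocyte markers summed to 0.60 to 4.40 CPM, with CD3E at 0 in the isotonic and hypertonic libraries, and the 4 endothelial markers to 7.93 to 32.3 CPM, led by PECAM1. The 5 epithelial markers summed to 348 to 552 CPM, nearly all from KRT8 and KRT18, with CDH1 under 1 CPM. These 3 sums were higher in isotonic 2 and hypertonic 1 than in isotonic 1 and hypertonic 2 (leukocyte 4.04 and 4.40 against 0.60 and 0.69, endothelial 28.97 and 28.2 against 8.24 and 7.93, epithelial 546.5 and 552 against 351 and 348 CPM). Single markers at low levels were higher in both rescue libraries than in the other 4: VWF at 11.4 CPM in each against 1.59 to 1.90, EPCAM at 12.6 and 11.7 against 3.16 to 4.48, KRT19 at 2.0 and 1.79 against 0.067 or less, KDR at 1.47 and 1.91 against 0.22 or less, and PTPRC at 2.54 and 2.17 against 0.998 or less. The part of all these markers in the results below was not tested.

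The first comparison asks what 4 h of hypertonic medium did to the P-TEFb genes, and HEXIM1 and ELL2 differed most, in opposite directions in number 1 and number 2. HEXIM1, the inhibitor, lies on chromosome 17 from 45148502 to 45152101 (GRCh38, GENCODE 29) as a single exon of 3600 bases, and an antisense RNA overlaps it. It was at 37.8 and 104 CPM in isotonic 1 and 2, at 105 and 39.2 CPM in hypertonic 1 and 2, and rescue 1 and 2 held 71.9 and 68.2 CPM. Isotonic 2 and hypertonic 1 were thus high, isotonic 1 and hypertonic 2 low, the rescue libraries in between, and the labelled groups overlapped. With all 6 libraries its log2 fold change of hypertonic over isotonic was 0.027 (SE 0.74; edgeR quasi-likelihood test, adjusted p = 1). In number 1 it was 3.10-fold higher in hypertonic (log2 1.63, SE 0.088, adjusted p = 9.11e-74) and in number 2 it was lower (log2 -1.55, SE 0.088, adjusted p = 6.90e-67). In a culture measured in bulk, fewer cells with a transcript and less of it per cell cannot be told apart.

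ELL2, an elongation factor that keeps polymerase moving, lies on chromosome 5 from 95885098 to 95962071. It was at 64.9 and 217 CPM in isotonic 1 and 2, at 210.1 and 69.4 CPM in hypertonic 1 and 2, and rescue 1 and 2 held 120.1 and 128 CPM. This is the same order of libraries as for HEXIM1, with rescue again between the low and the high pair. In number 1 ELL2 was 3.61-fold higher in hypertonic (edgeR adjusted p = 2.04e-100) and in number 2 it was 3.45-fold lower (adjusted p = 1.36e-93). AFF4, the scaffold of the super elongation complex, on chromosome 5 from 132875379 to 132963634, was at 257 and 443 CPM in isotonic 1 and 2, at 431 and 260 CPM in hypertonic 1 and 2, and rescue 1 and 2 held 278 and 287 CPM. Its rescue libraries lay close to the low pair. In number 1 it was 1.88-fold higher (edgeR adjusted p = 6.32e-23) and in number 2 it was 1.88-fold lower (adjusted p = 5.20e-23).

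The kinase and its partners differed less between these libraries. CDK9, on chromosome 9 from 127785679 to 127790787, was at 41.9 and 44.4 CPM in isotonic 1 and 2 and at 48.6 and 40.5 CPM in hypertonic 1 and 2. It was 1.29-fold higher in hypertonic in number 1 (edgeR adjusted p = 9.63e-05) and 1.21-fold lower in number 2 (adjusted p = 0.00534). CCNT2, a cyclin T, lies on chromosome 2 from 134918235 to 134959342. It was at 88.6 and 125 CPM in isotonic 1 and 2 and at 119 and 89.7 CPM in hypertonic 1 and 2. CCNT2 thus followed the order of HEXIM1 at a smaller size, with a log2 fold change of 0.58 in number 1 and -0.62 in number 2. LARP7, the 7SK-binding protein on chromosome 4 from 112636964 to 112657592, ran the other way, at 54.1 and 38.7 CPM in isotonic 1 and 2 and at 38.4 and 55.2 CPM in hypertonic 1 and 2. It was 1.26-fold lower in hypertonic in number 1 (edgeR adjusted p = 0.00042) and 1.29-fold higher in number 2 (adjusted p = 0.000104). The LARP7 span holds the miR-302 and miR-367 hairpins and an antisense RNA on the other strand and shares 32 bases with ZGRF1, so reads of these may not be told apart. CCNT1 and POLR2A did not pass in either number, and SUPT5H passed in number 1 alone, at 1.16-fold higher (edgeR adjusted p = 0.0207).

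Grouped as labelled, 0 of the 9 genes passed between hypertonic and isotonic, as did 0% of all 18208 genes tested (edgeR; 0 by limma voom and 1 gene, not a member, by DESeq2), and 52 genes had an unadjusted p under 0.05. In number 1, 6 of the 9 were higher and 1 was lower, against 31.6% and 32.6% of all genes. In number 2, 1 was higher and 5 were lower, against 32.9% and 31% of all genes. By CPM, isotonic 2 and hypertonic 1 both lay above isotonic 1 and hypertonic 2 for 6 of the 9 genes, against 35% of all genes, by at least 2-fold for HEXIM1 and ELL2 (10.8% of all genes), and both lay below for CCNT1, LARP7 and POLR2A (53.1% of all genes). These positions are by library total. After edgeR's correction for library composition (TMM) CCNT1 was at 77.8 and 77.9 CPM in isotonic 1 and 2, so isotonic 2 was then not below. By library total the labelled groups overlapped for all 9 genes. In 2.59% of all genes both hypertonic libraries lay above both isotonic ones and in 3.05% below.

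**Figure D1:**
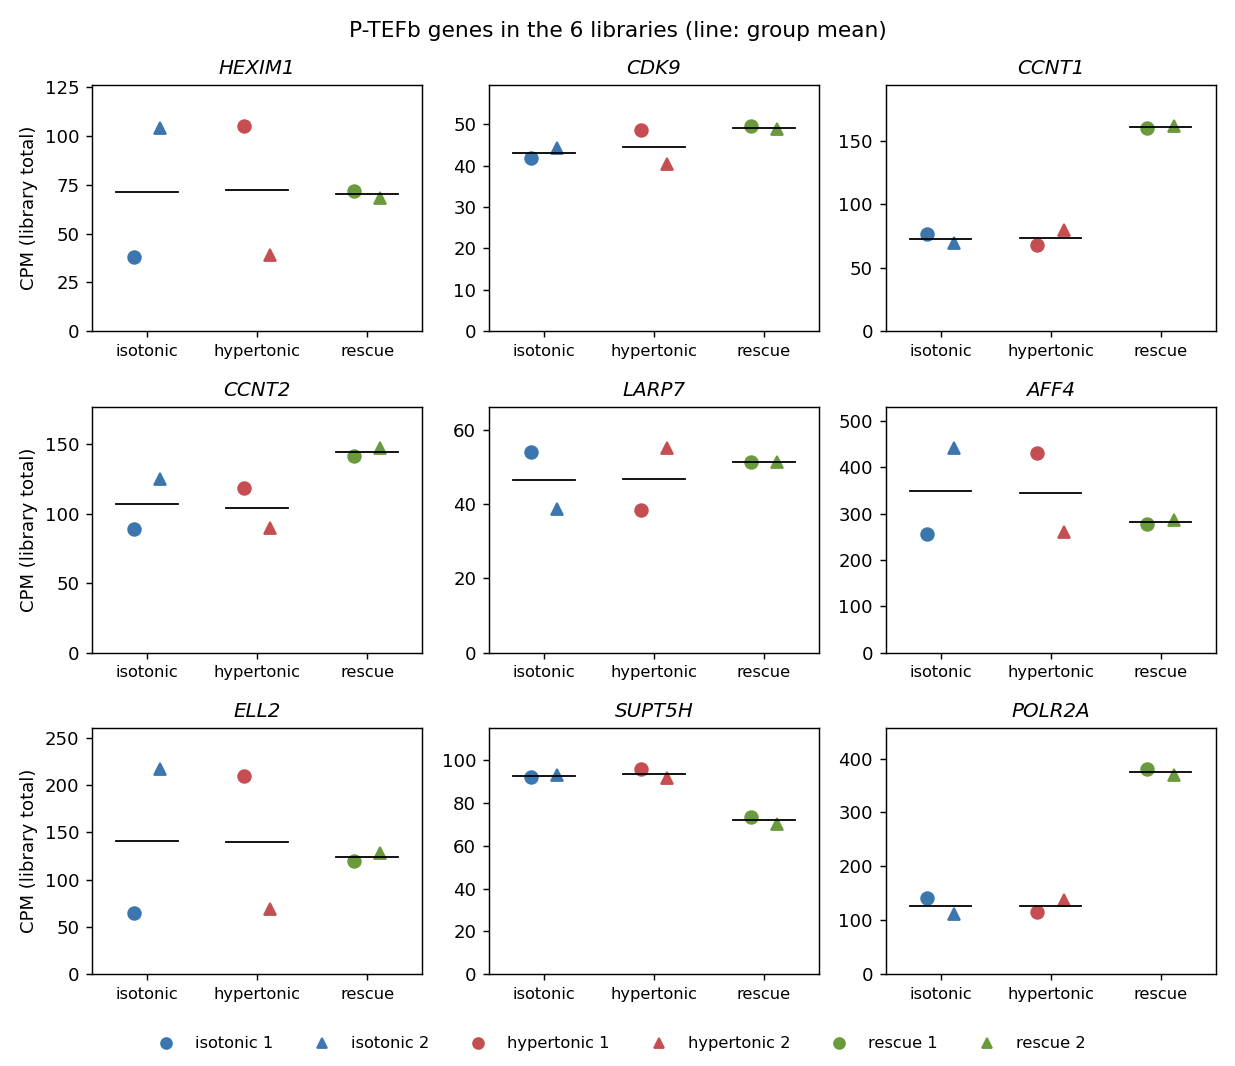
Level of each of the 9 genes in CPM by library total (vertical axis, from 0) in the isotonic, hypertonic and rescue groups; circles are replicate 1, triangles replicate 2 and lines group means. HEXIM1, ELL2 and AFF4 are high in isotonic 2 and hypertonic 1, while POLR2A and CCNT1 are highest in both rescue libraries and SUPT5H is lowest there.

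The second question is how far the P-TEFb genes stood from the other groups 4 h after the return to isotonic medium, and POLR2A, the largest subunit of RNA polymerase II, moved most. POLR2A, on chromosome 17 from 7484366 to 7514616, was at 141 and 111 CPM in isotonic 1 and 2, at 116 and 137 CPM in hypertonic 1 and 2, and rescue 1 and 2 held 380.2 and 369 CPM. Both rescue libraries lay far above the other 4. The mean was 375 ± 7.66 CPM in rescue and 126 ± 21.1 CPM in isotonic (SD, n = 2 each). POLR2A rose by a log2 fold change of 1.29 against isotonic (SE 0.11, 2.44-fold; edgeR quasi-likelihood test, adjusted p = 0.00892) and of 1.27 against hypertonic (SE 0.11; adjusted p = 0.00922). These fitted values are smaller than the 2.98-fold ratio of CPM because TMM, edgeR's correction for library composition, scaled the rescue libraries by 1.14 and 1.15, and the others by 0.885 to 0.986.

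CCNT1, the gene of cyclin T1 on chromosome 12 from 48688458 to 48716998, also rose in rescue. It was at 76.7 and 69.1 CPM in isotonic 1 and 2, at 67.6 and 79.8 CPM in hypertonic 1 and 2, and rescue 1 and 2 held 160.0 and 162 CPM. The groups did not overlap, and the rescue libraries lay above all others. The log2 fold change was 0.85 against isotonic (SE 0.096, 1.80-fold; edgeR adjusted p = 0.0109) and 0.83 against hypertonic (SE 0.096, adjusted p = 0.0109). SUPT5H, the large subunit of DSIF on chromosome 19 from 39436156 to 39476670, fell: isotonic 1 and 2 held 92.4 and 93.0 CPM, hypertonic 1 and 2 held 95.8 and 91.7 CPM, and rescue 1 and 2 held 73.4 and 70.3 CPM. The rescue libraries were the lowest, below the narrow range of the other 4. Its log2 fold change was -0.66 against isotonic (SE 0.13; edgeR adjusted p = 0.0291) and -0.69 against hypertonic (SE 0.13, adjusted p = 0.0265).

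These 3 calls kept their direction in every alternative but not their side of the threshold. In edgeR fits without 1 library, POLR2A against isotonic had a log2 fold change of 1.38 without isotonic 1 (adjusted p = 0.0525), 1.19 without isotonic 2 (adjusted p = 0.0548), 1.26 without rescue 1 (adjusted p = 0.159) and 1.31 without rescue 2 (adjusted p = 0.169), and CCNT1 and SUPT5H also missed the threshold in these fits, as did all other genes. In the same 4 fits the adjusted p of CCNT1 was 0.0561, 0.0597, 0.159 and 0.169, and that of SUPT5H was 0.0710, 0.109, 0.206 and 0.237. In number 1 and number 2 POLR2A was 2.28-fold and 2.61-fold higher than isotonic, CCNT1 1.80-fold higher in both, and SUPT5H 1.499-fold and 1.68-fold lower, each past the threshold by edgeR. Against hypertonic the edgeR calls on these genes were lost too without either hypertonic or either rescue library, with adjusted p for POLR2A of 0.0557 without hypertonic 1, 0.0508 without hypertonic 2, 0.156 without rescue 1 and 0.165 without rescue 2. The edgeR call on SUPT5H was also lost with upper quartile scaling (adjusted p = 0.0751 against isotonic and 0.0658 against hypertonic), library totals (0.0683 and 0.0618) and a filter at a mean of 5 CPM (0.0628 and 0.0559).

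The remaining 6 genes did not pass in rescue with all 6 libraries. HEXIM1 had a log2 fold change of -0.35 against isotonic (SE 0.74; edgeR adjusted p = 0.765), being 1.59-fold higher than isotonic 1 (number 1, adjusted p = 3.23e-17) and 1.93-fold lower than isotonic 2 (number 2, adjusted p = 2.94e-38). ELL2 showed the same order, 1.64-fold higher than isotonic 1 (edgeR adjusted p = 8.90e-21) and 2.27-fold lower than isotonic 2 (adjusted p = 2.58e-63). AFF4 was 2.03-fold lower than isotonic 2 (edgeR adjusted p = 3.32e-41), and its log2 fold change against isotonic 1 was -0.084 (SE 0.077, adjusted p = 0.309). CCNT2 was at 142 and 147.5 CPM in rescue, above all other libraries, but after TMM scaling it was 1.40-fold higher than isotonic 1 (edgeR adjusted p = 9.58e-11) and 1.12-fold lower than isotonic 2 (adjusted p = 0.0330). CDK9 was at 49.6 and 48.8 CPM and LARP7 at 51.2 and 51.3 CPM in rescue. The sign of both fold changes turned with the scaling, from -0.11 to 0.19 for CDK9 and from -0.14 to 0.14 for LARP7 on the log2 scale against isotonic, between TMM and library totals.

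Of the 9 genes, 2 passed as higher and 1 as lower in rescue against isotonic, and the same numbers against hypertonic, comparisons that share the rescue libraries. Of all genes 9.61% were higher and 13.5% lower against isotonic, and 9.86% and 13.8% against hypertonic. Number 1 gave 5 higher and 2 lower against isotonic (40.5% and 38.6% of all genes) and 2 higher and 5 lower against hypertonic (41% and 40.5%). Number 2 gave 2 higher and 6 lower against isotonic (40.7% and 40.1%) and 5 higher and 2 lower against hypertonic (40.5% and 38.6%). The balance of these calls moved with the scaling: against isotonic 1749 genes were higher and 2453 lower with TMM, and 2050 and 1095 with library totals, where the median log2 fold change of all genes was 0.27 against -0.020 with TMM. The median of the 9 genes was -0.14 with TMM and 0.14 with library totals. By CPM both rescue libraries lay above the other 4 for CDK9, CCNT1, CCNT2 and POLR2A (46.9% of all genes) and below them for SUPT5H (21.8%). Taken by comparison, the same 4 genes and SUPT5H did not overlap with isotonic (48.6% of all genes higher, 22.8% lower) or with hypertonic (49.1% and 22.8%).

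**Figure D2:**
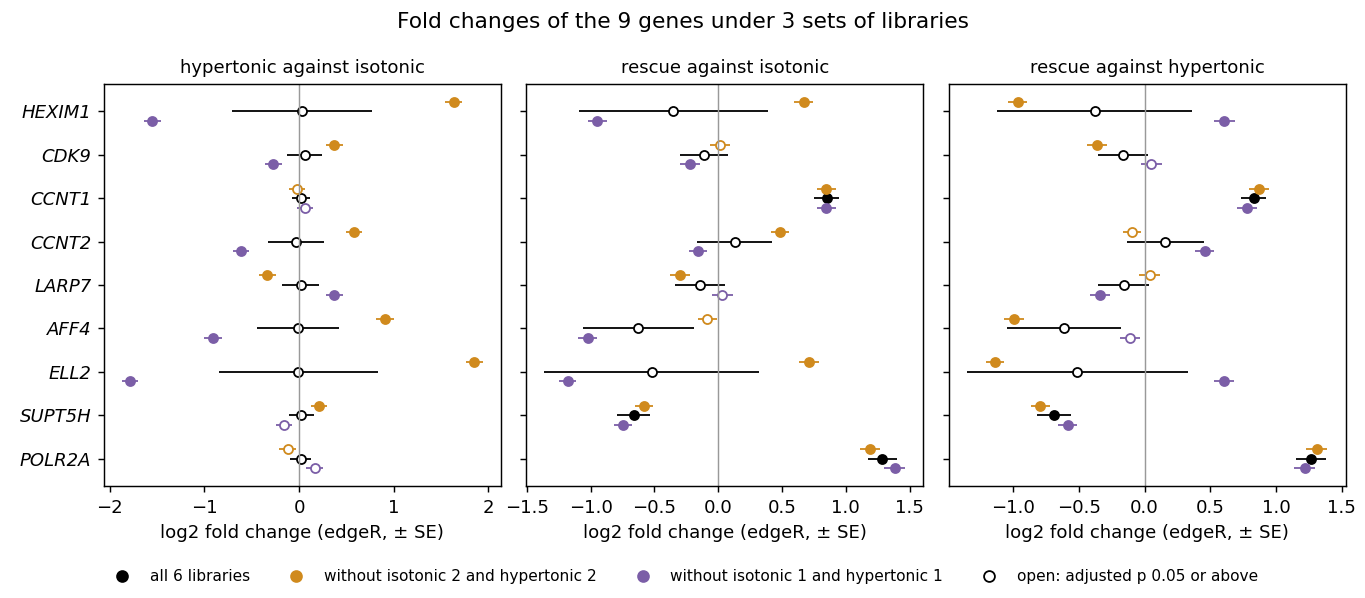
Fitted log2 fold change (horizontal axis, ± SE) of each gene in the 3 comparisons, from all 6 libraries (black) and from number 1 (orange) and number 2 (purple); filled points passed an adjusted p of 0.05. For HEXIM1, ELL2, CDK9, CCNT2 and LARP7 the orange and purple points fall on opposite sides of 0 in every comparison. POLR2A, CCNT1, SUPT5H and AFF4 keep their side in both rescue comparisons.

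Ratios of counts between genes within a library do not depend on the scaling. HEXIM1 over CDK9 was 0.90 and 0.97 in isotonic 1 and hypertonic 2, 2.35 and 2.16 in isotonic 2 and hypertonic 1, and 1.45 and 1.40 in rescue. HEXIM1 over CCNT1 was 0.49 in isotonic 1 and in hypertonic 2, 1.51 and 1.56 in isotonic 2 and hypertonic 1, and 0.45 and 0.42 in rescue. The inhibitor was thus highest against both P-TEFb subunits in isotonic 2 and hypertonic 1, and in rescue it was lowest against CCNT1 but not against CDK9. CCNT1 over CDK9 was 1.39 to 1.97 in the isotonic and hypertonic libraries and 3.23 and 3.31 in rescue. CCNT1 over CCNT2 was 0.55 to 0.89 in those 4 libraries and 1.13 and 1.10 in rescue, the libraries in which cyclin T1 counts exceeded those of cyclin T2. ELL2 over AFF4 was 0.25 and 0.27 in isotonic 1 and hypertonic 2, 0.49 in isotonic 2 and in hypertonic 1, and 0.43 and 0.45 in rescue. These ratios compare libraries within a gene pair, not the amounts of the 2 genes, which differ in length.

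**Figure D3:**
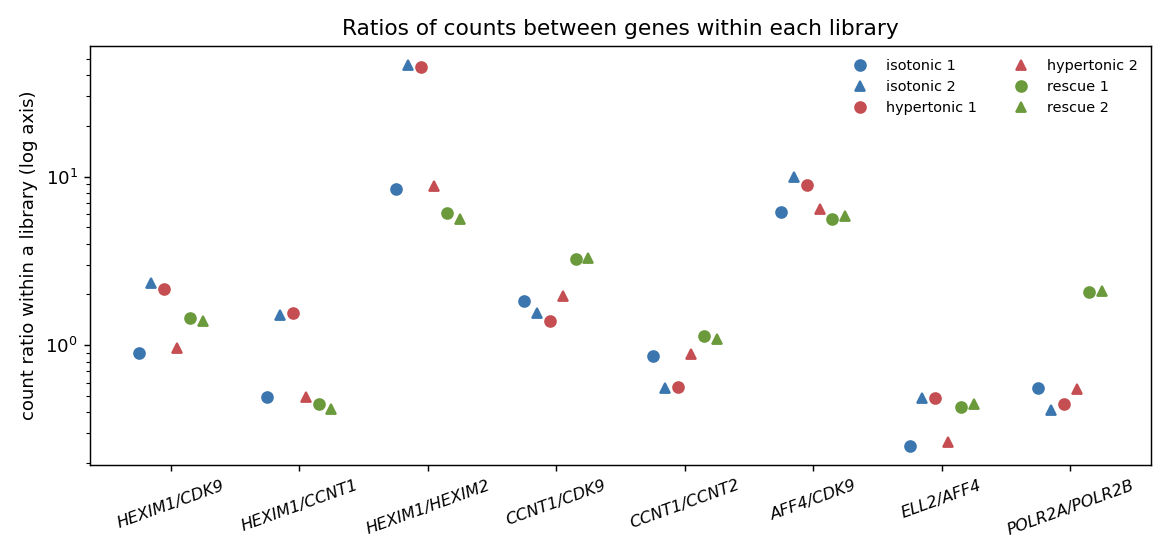
Ratio of counts between gene pairs within each library (vertical axis, log scale); colours and symbols mark the library. HEXIM1 over CDK9 splits isotonic 2 and hypertonic 1 (2.16 to 2.35) from isotonic 1 and hypertonic 2 (0.90 to 0.97), and POLR2A over POLR2B splits the rescue libraries (2.07 and 2.09) from the rest (0.42 to 0.56).

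Per kb of annotated exon, the mean CPM over the 6 libraries was highest for AFF4 at 28.8, followed by POLR2A at 25.03, HEXIM1 at 19.7, ELL2 at 18.4, CDK9 at 15.2, CCNT1 at 13.9, CCNT2 at 13.0, LARP7 at 11.8 and SUPT5H at 10.05. These means pool groups with different levels, and the order differed between libraries. AFF4 was above POLR2A in all 4 isotonic and hypertonic libraries (22.7 to 39.2 against 13.3 to 16.9 CPM per kb of exon), and POLR2A was above AFF4 in both rescue libraries (45.5 and 44.2 against 24.6 and 25.4). ELL2 ranked 9 of 9 in isotonic 1 and hypertonic 2, and 2 and 3 in isotonic 2 and hypertonic 1. Over all 6 libraries the ranges overlapped for all 8 neighbouring pairs, an overlap that for AFF4 and POLR2A comes from pooling the rescue libraries with the rest. The part of the gene that was counted is not given in the sources used here, and per kb of gene span the order changed: HEXIM1, which has no intron, was then highest at 19.7 CPM per kb, CDK9 followed at 8.93 and POLR2A at 6.91, and ELL2 was lowest at 1.75.

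Among the other genes of the pathway, 67 were listed by role and all 67 were tested. In rescue against isotonic 1 was higher and 20 were lower by edgeR, against 9.61% and 13.5% of all genes, with a median log2 fold change of -0.53. With library totals 0 were higher and 12 lower, with a median of -0.24, and DESeq2 called 4 higher and 30 lower. The shares of all genes here and beside the list counts below are those of edgeR with TMM. With library totals more of all genes were higher and fewer lower than with TMM, and DESeq2 called more genes. The list counts by those methods are therefore not to be set against these shares. Counts of all genes in rescue against isotonic are given above for library totals and, without direction, in the closing section for DESeq2. Against hypertonic, with the same rescue libraries, 1 was higher and 20 were lower, against 9.86% and 13.8% of all genes. In number 1 of hypertonic against isotonic 36 were higher and 13 lower (31.6% and 32.6% of all genes), and in number 2 14 were higher and 36 lower (32.9% and 31%); with all 6 libraries none of the 67 passed by edgeR, none of all 18208 genes did either, and none of the 67 was called by DESeq2 or limma voom.

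Of the other 12 RNA polymerase II genes, 4 were lower in rescue against isotonic by edgeR, where 13.5% of all genes were, 8 did not pass and 0 were higher, while POLR2A rose. POLR2E was at 46.8 and 51.0 CPM in isotonic and 32.4 and 30.2 CPM in rescue (log2 -0.94, edgeR adjusted p = 0.0231). POLR2B, the second-largest subunit, was at 252 and 267 CPM in isotonic and 184 and 177 CPM in rescue (log2 -0.83, edgeR adjusted p = 0.0207). In counts, POLR2A over POLR2B was 0.42 to 0.56 in the isotonic and hypertonic libraries and 2.07 and 2.09 in rescue. POLR2H, named after its values were seen, had 35.2 and 48.6 CPM in isotonic, 82.0 and 78.0 CPM in rescue, and did not pass (log2 0.62, edgeR adjusted p = 0.232). With library totals 2 of the 12 were lower and 0 higher, and DESeq2 called 7 lower and 0 higher.

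**Figure D4:**
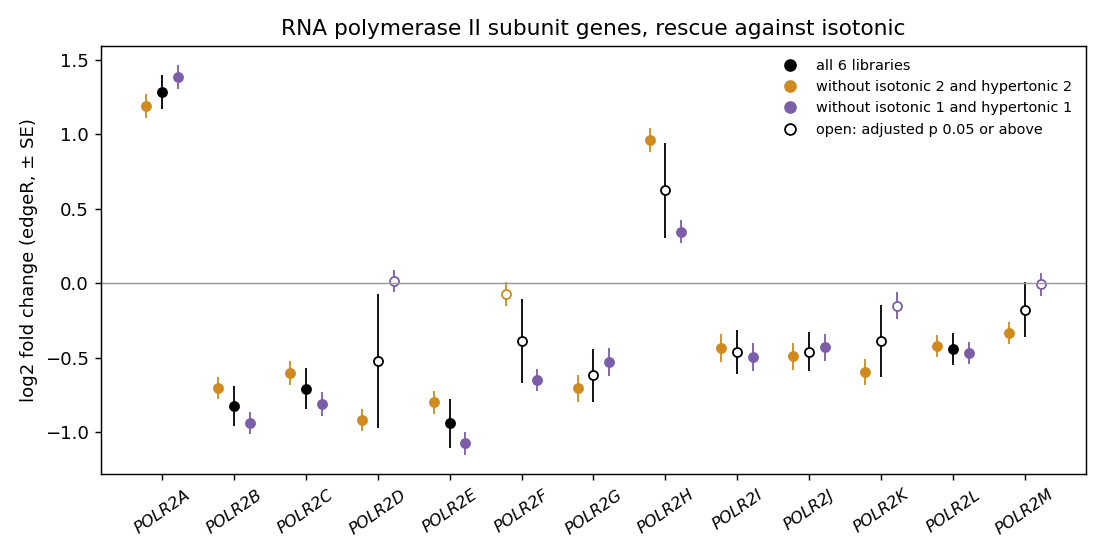
Fitted log2 fold change of rescue against isotonic (vertical axis, ± SE) for POLR2A and the 12 other RNA polymerase II genes, from all 6 libraries (black), number 1 (orange) and number 2 (purple); filled points passed an adjusted p of 0.05. POLR2A stands at 1.19 to 1.38 and POLR2B, POLR2C, POLR2E and POLR2L are filled below 0 in all 3.

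Of the 5 other genes of DSIF and NELF, the complexes that hold the paused polymerase, 3 were lower in rescue against isotonic and 0 higher (13.5% and 9.61% of all genes). NELFB was at 59.3 and 60.8 CPM in isotonic and 38.7 and 35.1 CPM in rescue (log2 -1.0, edgeR adjusted p = 0.0251), and NELFCD at 98.0 and 98.9 CPM in isotonic and 62.7 and 61.7 CPM in rescue (log2 -0.96, edgeR adjusted p = 0.0157). With library totals 2 of the 5 were lower, and by DESeq2 4. SUPT4H1, the partner of SUPT5H in DSIF, did not pass, and SUPT5H over SUPT4H1 in counts was 1.82 to 2.37 in the isotonic and hypertonic libraries and 1.34 and 1.33 in rescue. Of 12 genes of the PAF1 complex and other elongation factors, 5 were lower and 0 higher, against 13.5% and 9.61% of all genes. They included TCEA1, the factor that restarts arrested polymerase, at 102 and 110 CPM in isotonic and 63.5 and 65.6 CPM in rescue (log2 -1.02, edgeR adjusted p = 0.0172), and SSRP1, of the histone chaperone FACT, at 264 and 269 CPM in isotonic and 168 and 160.3 CPM in rescue (log2 -0.998, edgeR adjusted p = 0.0119). With library totals 4 of the 12 were lower, and by DESeq2 8.

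Of 9 partners in the super elongation complex, 1 was higher and 2 were lower in rescue against isotonic (9.61% and 13.5% of all genes; DESeq2 called 2 and 2). AFF3, a relative of AFF4, was at 24.9 and 15.1 CPM in isotonic and 62.5 and 70.7 CPM in rescue (log2 1.46, edgeR adjusted p = 0.0403; 0 of the 9 were higher with library totals). MLLT1, the reader subunit also called ENL, was at 61.0 and 65.3 CPM in isotonic and 28.3 and 29.1 CPM in rescue (log2 -1.44, edgeR adjusted p = 0.0109). Of 9 other transcription kinase and cyclin genes 2 were lower and 0 higher by edgeR, against 13.5% and 9.61% of all genes. They were CCNK (log2 -0.80, edgeR adjusted p = 0.0165) and its kinase CDK12 (log2 -0.56, adjusted p = 0.0243). With library totals 1 of the 9 was lower, and DESeq2 called 1 higher and 2 lower. The CCNK span overlaps CCDC85C on the other strand, so its counts are uncertain. Of 9 CTD phosphatase and P-TEFb release genes 3 were lower and 0 higher, against 13.5% and 9.61% of all genes. PPM1G, a phosphatase that releases P-TEFb from the 7SK complex, was at 180.4 and 183 CPM in isotonic and 78.0 and 76.1 CPM in rescue (log2 -1.53, edgeR adjusted p = 0.00887), and CTDSPL, a CTD phosphatase, had a log2 fold change of -1.35 (adjusted p = 0.0196). With library totals 1 of the 9 was lower, and by DESeq2 4.

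None of the 3 bromodomain genes that recruit P-TEFb passed in rescue with all 6 libraries by edgeR, where 4202 of 18208 genes passed; DESeq2 called 1 of the 3 lower. In number 1 of hypertonic against isotonic 2 of the 3 were higher and 1 lower, and in number 2 1 was higher and 2 were lower. The 7SK partners MEPCE, which caps the 7SK RNA, and HEXIM2, the paralog of HEXIM1 on chromosome 17 from 45160700 to 45170040, did not pass by edgeR with all 6 libraries. DESeq2 and limma voom each called HEXIM2 higher on the same libraries, and it was higher in number 1 and number 2. HEXIM2, described after its values were seen, was at 4.49 and 2.27 CPM in isotonic 1 and 2, at 2.37 and 4.46 CPM in hypertonic 1 and 2, and rescue 1 and 2 held 11.8 and 12.2 CPM (log2 1.55 against isotonic, SE 0.42, edgeR adjusted p = 0.0646). Its order among the isotonic and hypertonic libraries was the reverse of that of HEXIM1, and HEXIM1 over HEXIM2 in counts was 45.9 and 44.4 in isotonic 2 and hypertonic 1, 8.42 and 8.78 in isotonic 1 and hypertonic 2, and 6.12 and 5.57 in rescue.

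Of 6 short-lived transcripts known to need P-TEFb (MYC, MCL1, JUNB, FOS, EGR1 and IER2), 6 were higher in hypertonic in number 1, with a median log2 fold change of 1.65, and 6 were lower in number 2, with a median of -1.57. Of all genes 31.6% were higher in number 1 and 31% lower in number 2. The medians of all genes tested were 0 in both. In rescue with all 6 libraries 1 of the 6 passed as lower against isotonic by edgeR (13.5% of all genes), and 2 of the 6 by DESeq2. The edgeR call was MYC, the growth-promoting transcription factor, at 125 and 177 CPM in isotonic and 48.3 and 45.3 CPM in rescue (log2 -1.999, SE 0.32, edgeR adjusted p = 0.0201). The median log2 fold change of the 6 against isotonic was 0.42 in number 1 and -1.72 in number 2. MYC and EGR1 were lower in both. MCL1, JUNB, FOS and IER2 were higher in number 1 and lower in number 2. Among the pathway genes named here for rescue against isotonic, every call was lost in edgeR when an isotonic or a rescue library was left out, since 0 genes passed in those 4 fits.

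The genes with the pattern most like a member over the 6 libraries were found by the root mean square difference of centred log2 CPM among the 11570 genes averaging 10 CPM or more. For HEXIM1 they were TMEM184A (0.038), RFPL4A (0.041) and DENND2C (0.055), for CDK9 GPC1 (0.027), PIGT (0.029) and C19orf25 (0.030), and for POLR2A EHD3 (0.031), EXOC8 (0.037) and PLAC8 (0.044). The 6 libraries formed 3 like pairs, so each profile rests on few distinct levels.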

How the data were processed

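Total RNA of 6 libraries was sequenced on a HiSeq 2000 after removal of ribosomal RNA. Per the submitters' processing notes, bcl2fastq, TopHat2, Bowtie2 and bedtools were used with the build GRCh38 (hg38); versions, annotation, feature counted and strand setting were not given in the sources used here, and reads of overlapping genes may not be told apart. Each library has 1 table of unnormalized gene counts deposited by the authors. Samples were grouped by their source labels.

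One edgeR 4.0.16 quasi-likelihood model (R 4.3.3) with a mean per group, filterByExpr, TMM scaling and robust dispersion tested 18208 genes, two-sided, calling genes at a Benjamini-Hochberg adjusted p under 0.05; SE is the log2 fold change over the root of the F statistic. It had 3 residual degrees of freedom and a biological coefficient of variation of 38.4%. CPM are by library total, with ± the SD of 2 libraries. DESeq2 1.42.0, limma 3.58.1 voom, other scalings and filters, the replicate block and left-out libraries were alternatives. The steps were tested on simulated data. Coordinates and exons come from GENCODE 29, promoters from RefSeq (GRCh38.p14).

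The members, lists and alternatives were chosen with earlier results of these data known. Named beside the 9 members were up to 2 called genes per list and comparison with the largest change, and 3 nearest patterns for HEXIM1, CDK9 and POLR2A.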

Additional observations from a re-analysis of the deposited data

How the results depend on the processing

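Counts of calls depended on which libraries entered. For hypertonic against isotonic, 0 genes and 0 members were called by edgeR with all 6 libraries; DESeq2 called 1 gene, number 1 called 11841 genes and 7 members, number 2 called 11776 genes and 6 members, and the fits without 1 library called 0 genes and 0 members. For rescue against isotonic, 4202 genes and 3 members were called with all libraries, 6998 genes by DESeq2, 2631 with a filter at a mean of 5 CPM, 14591 genes and 7 members in number 1 and 14898 genes and 8 members in number 2. Leaving out 1 library gave 0 to 3460 genes and 0 to 3 members. For rescue against hypertonic the counts were 4304 and 3 with all libraries, 7102 genes by DESeq2, 2680 with the 5 CPM filter, 15027 genes and 7 members in number 1, 14586 and 7 in number 2, and 0 to 3691 genes and 0 to 3 members without 1 library. The spread in number 1 and number 2 comes from the rescue libraries alone, which are alike.

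The replicate block, which pairs libraries of the same number, called 0 genes and 0 members in both rescue comparisons; POLR2A kept a log2 fold change of 1.29 against isotonic (adjusted p = 0.0832). The numbers were not used as pairs, since the deviations of same-numbered libraries from their group means correlated at -0.91 for isotonic and hypertonic, -0.026 for isotonic and rescue, and 0.039 for hypertonic and rescue. A block on the crossed pairs of the isotonic and hypertonic libraries, chosen after seeing the data, called 21 genes and 0 members.

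Of 441 member fold changes under alternatives, 324 kept direction and side of the threshold, and 36 kept direction but missed a threshold passed before. Another 19 kept direction and newly passed. The other 62 changed sign and were counted there whether or not they passed, so 19 is not the number of all new passes. The cause was not tested. For hypertonic against isotonic the changed signs in number 1 were CCNT1 -0.026, CCNT2 0.58, LARP7 -0.34, AFF4 0.91, ELL2 1.85 and POLR2A -0.12, and in number 2 HEXIM1 -1.55, CDK9 -0.27 and SUPT5H -0.16. AFF4 stood at 0.0041 and ELL2 at 0.051 with limma voom, and ELL2 at 0.033 with the replicate block and 0.026 with the crossed block. Without 1 library HEXIM1 ranged from -0.96 to 1.05, CDK9 from -0.16 to 0.25, CCNT1 from -0.026 to 0.065, CCNT2 from -0.33 to 0.33, LARP7 from -0.18 to 0.19, AFF4 from -0.52 to 0.53, ELL2 from -1.13 to 1.23, SUPT5H from -0.083 to 0.13 and POLR2A from -0.075 to 0.12.

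For rescue against isotonic they were HEXIM1 0.67, ELL2 0.71 and CDK9 0.011 in number 1 and CCNT2 -0.16 and LARP7 0.033 in number 2. CDK9 was at 0.11 with upper quartile scaling, 0.19 with library totals and 0.083 with the 5 CPM filter, and LARP7 at 0.073, 0.14 and 0.050. Without 1 library HEXIM1 ranged from -0.95 to 0.67, CDK9 from -0.22 to 0.011, CCNT2 from -0.16 to 0.48, LARP7 from -0.30 to 0.033 and ELL2 from -1.18 to 0.71. For rescue against hypertonic they were CCNT2 -0.095 and LARP7 0.038 in number 1, and HEXIM1 0.61, CDK9 0.052 and ELL2 0.61 in number 2; CDK9 was at 0.046, 0.14 and 0.027 and LARP7 at 0.053, 0.13 and 0.034 under the same scalings and filter. Without 1 library HEXIM1 ranged from -0.96 to 0.61, CDK9 from -0.36 to 0.051, CCNT2 from -0.095 to 0.46, LARP7 from -0.34 to 0.039 and ELL2 from -1.14 to 0.61. Counts of the 9 genes ran from 3492 to 43735 per library. Some spreads within a group, such as that of LARP7 in rescue (SD 0.078 CPM), are too small to tell from counting error.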
